A study of Mus musculus with 8 samples.

Results

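The Cyp4 gene cluster of mouse chromosome 4 was examined for the repressive histone mark H3K27me3 in livers of male CD-1 mice aged 7 weeks. It was taken as an approximate 560 kb window on build mm9, from 114780001 to 115340000, and read in 56 bins of 10 kb, out of 246948 such bins on the 19 autosomes. CD-1 is an outbred stock, and each ChIP was made from 1 liver. Treated mice received TCPOBOP at 3 mg/kg, and controls received the vehicle, 1% DMSO in corn oil. Livers were taken 3 h after the injection in both groups. Fragments of 600 to 1100 bp, digested to 500 bp, gave 3 TCPOBOP and 3 vehicle libraries from 6 livers. Fragments over 1100 bp, digested to 200 bp, gave 2 further libraries, 1 from the TCPOBOP and 1 from the vehicle ChIP sample numbered replicate 1. The comparison asked whether activation of the nuclear receptor CAR by TCPOBOP altered H3K27me3 within 3 h.

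H3K27me3 is laid down by Polycomb repressive complex 2 and marks genes held silent, and in mammals the complex acts mainly at promoters rich in CG dinucleotides. CYP4 enzymes are cytochromes P450 that hydroxylate fatty acids and eicosanoids, mostly at the omega carbon. In mouse liver, Cyp4a10 and Cyp4a14 are classical targets of the nuclear receptor PPARα, and Cyp4a12a is expressed more in males than in females. Cyp4b1 is known mainly from lung and kidney, and Cyp4x1 mainly from brain. In the gene order of the RefSeq table of assembly GRCm38.p6, the cluster held 10 protein-coding genes from Cyp4x1 to Cyp4b1, all 10 of them Cyp4 genes. They followed each other as Cyp4x1, Cyp4a29, Cyp4a12a, Cyp4a12b, Cyp4a30b, Cyp4a14, Cyp4a10, Cyp4a31, Cyp4a32 and Cyp4b1. Pdzk1ip1, Tal1 and Stil were the nearest protein-coding genes on the Cyp4x1 side, and Efcab14 on the Cyp4b1 side. Beyond Stil came Cmpk1, Foxe3 and Foxd2. Tal1 encodes a transcription factor of blood cell formation and Stil a protein of centriole assembly.

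The promoters differed in their content of CG dinucleotides. Of 11 Cyp4 genes of the cluster looked up, antisense Cyp4x1os included, 5 had a promoter in the RefSeq table of GRCm38.p6, and Cyp4b1 was the 1 found among the 6 genes described here. Each sequence runs from 250 bases before to 50 bases after a gene's start. They show this difference in CG, and whether it bears on the places of islands was not tested. The first, of antisense Cyp4x1os, lies just inside Cyp4x1, the gene whose window lay under islands. The promoter of Cyp4x1 itself was not found. The other 2 belong to genes of the part that lay under none. CG is in capitals.
Cyp4x1os: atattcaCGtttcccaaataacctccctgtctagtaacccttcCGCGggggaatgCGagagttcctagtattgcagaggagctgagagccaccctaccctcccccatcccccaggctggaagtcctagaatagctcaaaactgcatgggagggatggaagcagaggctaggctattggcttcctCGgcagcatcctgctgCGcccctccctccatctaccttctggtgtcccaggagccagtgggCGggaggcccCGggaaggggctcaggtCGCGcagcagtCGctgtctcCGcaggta
Cyp4a29: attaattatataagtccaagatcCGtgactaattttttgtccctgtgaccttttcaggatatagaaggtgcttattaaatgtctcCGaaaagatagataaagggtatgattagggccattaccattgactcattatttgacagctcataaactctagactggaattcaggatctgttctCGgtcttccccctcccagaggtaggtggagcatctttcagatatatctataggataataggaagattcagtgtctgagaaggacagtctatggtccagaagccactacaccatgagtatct
Cyp4b1: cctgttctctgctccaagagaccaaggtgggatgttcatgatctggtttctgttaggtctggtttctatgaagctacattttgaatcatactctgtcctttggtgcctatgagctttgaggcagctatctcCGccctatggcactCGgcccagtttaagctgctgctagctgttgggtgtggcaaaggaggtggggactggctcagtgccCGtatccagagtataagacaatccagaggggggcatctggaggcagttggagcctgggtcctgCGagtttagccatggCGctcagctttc
The Cyp4x1os sequence lies at chr4:115133582-115133881 of GRCm38.p6 on the plus strand. Cyp4x1os is a noncoding RNA whose start lies inside the Cyp4x1 gene, the pair overlapping by 248 bases at their starts. The Cyp4a29 sequence lies at chr4:115241794-115242093 on the plus strand and the Cyp4b1 sequence at chr4:115647672-115647971 on the minus strand of the same build, whose positions do not carry over to mm9. The Cyp4x1os promoter held 12 CG, a number reached by 39.6% of the 32851 promoters in the table, whose median was 7. Those of Cyp4a29, Cyp4a30b and Cyp4a32 held 3 each, a number that 76.7% of all promoters reached. That of Cyp4b1 held 5, reached by 62.0%. On the Cyp4x1 side, the promoter of Stil held 26, the 2 of Tal1 held 11 and 22 and that of Pdzk1ip1 held 3. Further out, those of Foxe3 and Foxd2 held 10 and 26. On the Cyp4b1 side, the 2 promoters of Efcab14 held 23 and 27. Their place on mm9 was not fixed, so whether an island lay over them is not known. A count of CG describes these letters and is no measure of the mark.

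The deposited lists give islands, stretches joined from 400 bp windows with more reads than the background modelled for that library, each with a score. Gaps between islands were at least 2800 bp, so an island can include shorter stretches that were not enriched. The 6 lists of 600 to 1100 bp held 6295 to 14748 islands and covered 7.05 to 13.8% of the autosomes, and the 2 lists of fragments over 1100 bp covered 27.3% with TCPOBOP and 26.4% with vehicle. Read totals are unknown, so no counting interval could be given. A window over the HoxA genes, a classical Polycomb target, was 100% covered in all 8 lists, and 1 over the hepatocyte genes Alb and Afp was 0% covered in all 8. In whole liver, fewer cells with the mark and less mark per cell cannot be told apart.

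In every library, islands lay at the Cyp4x1 end of the cluster and nowhere else in it. Of the 56 bins, 52 held no island in any of the 8 lists, and the 4 that did were the first 4. Of the windows over the 6 genes, that of Cyp4x1 was largely covered, and those of Cyp4a12a, Cyp4a12b, Cyp4a14, Cyp4a10 and Cyp4b1 were 0% covered in each of the 8 lists. The gene windows are approximate mm9 positions rounded out to 10 kb, and 1 constant shift placed all 6 genes of the GRCm38.p6 table inside them, so their spacing, but not their exact place, was checked. The windows without islands thus included genes known from liver, such as Cyp4a10, Cyp4a14 and Cyp4a12a, and also Cyp4b1, known mainly from other tissues.

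**Figure D1:**
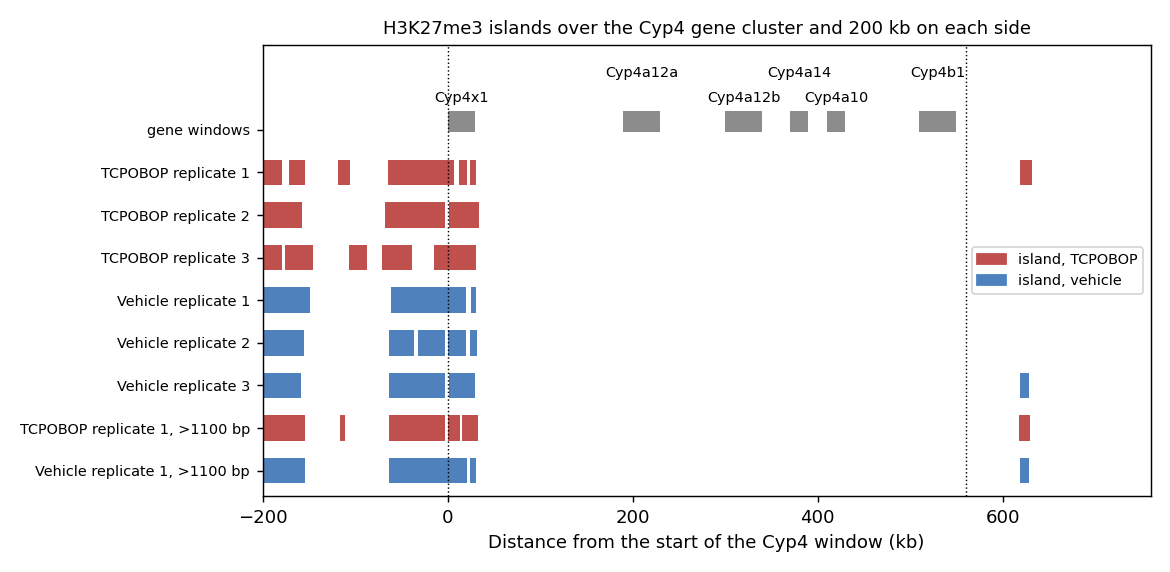
Islands of each library across the Cyp4 window and 200 kb on each side; the x axis is the distance in kb from the window's start, dotted lines mark the window's edges, and grey bars are the approximate gene windows. All 14 islands that overlap the window lie at its Cyp4x1 end, and the Cyp4a and Cyp4b1 windows lie under none; islands that reach beyond the plotted range are drawn to its edge.

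The Cyp4x1 window, 30 kb from 114780001 to 114810000, was covered to 72.0, 96.0 and 100% in TCPOBOP replicates 1, 2 and 3. It was covered to 82.7, 85.3 and 94.7% in vehicle replicates 1, 2 and 3. TCPOBOP replicate 1 was the lowest of the 6 livers and TCPOBOP replicate 3 the highest, so the treatments overlapped. The means were 89.3 ± 15.1% with TCPOBOP and 87.6 ± 6.30% with vehicle (SD, n = 3 each). They differed by 1.78 percentage points, less than the spread between livers (two-sided exact permutation p = 0.9). With 3 livers against 3 the smallest p this test can give is 0.1. Without TCPOBOP replicate 1 the difference was 10.4 points and the treatments no longer overlapped (exact permutation p = 0.2), while with a score minimum in every list it was -8.44 points (exact permutation p = 1). Fragments over 1100 bp gave a cover of 89.3% with TCPOBOP and 88.0% with vehicle.

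**Figure D2:**
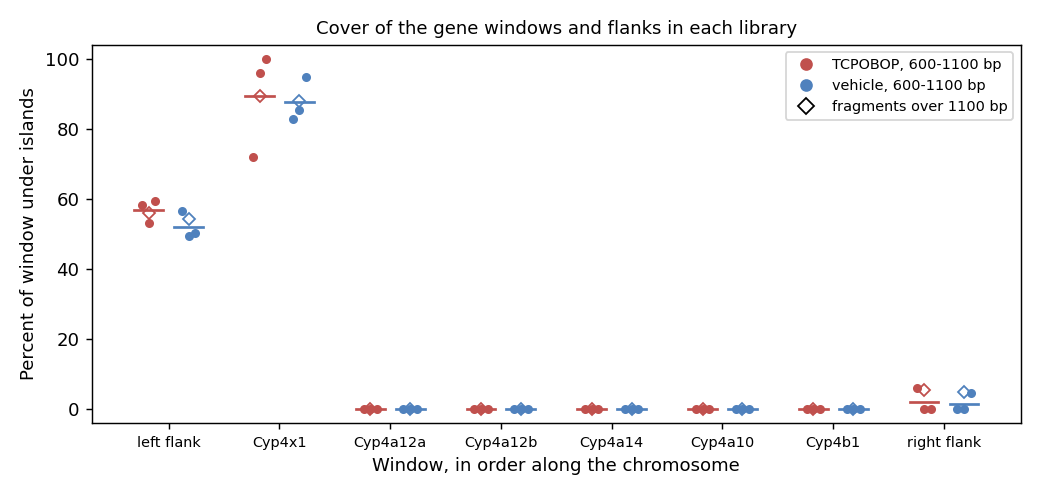
Percent of each window under islands, for the 200 kb before the cluster, the 6 gene windows in their order and the 200 kb after it; points are livers, horizontal lines means of 3 livers, and open diamonds the libraries of fragments over 1100 bp. Cyp4x1 lies between 72.0 and 100% in the 6 livers, and the other 5 gene windows lie at 0% in every library.

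The islands at Cyp4x1 were shared in part among livers. Stretches of 5.2 kb (114781601 to 114786800), 8 kb (114792001 to 114800000) and 4.8 kb (114805201 to 114810000) lay under islands in all 6 livers, 18 kb or 3.21% of the window in sum. Of these, 5.2 kb, 1.2 kb, 4 kb and 4.8 kb were also covered in both lists of fragments over 1100 bp. A further 94% of the window was covered in none of the 6 livers, which left 15.6 kb that was covered in 1 to 5 of them. No stretch of the window was covered in all 3 livers of 1 treatment and in none of the other. In TCPOBOP replicate 1 the 8 kb stretch rested on a 9.2 kb island ranked 12093 of 13759 by score. Its score was 49.2, against a lowest score of 44.2 in that list. That island was lost under a score minimum in every list and at equal covered length.

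The last covered base of the Cyp4x1 islands fell within 3.6 kb in all 8 lists. It was 114811200, 114813600 and 114810400 in TCPOBOP replicates 1, 2 and 3, and 114810400, 114811600 and 114810000 in vehicle replicates 1, 2 and 3. The livers of both treatments thus ended at nearly the same place. In vehicle replicate 1 this end rested on a 5.2 kb island scored 84.8, against a lowest score of 84.6 in that list. The island before it ended at 114800000. The lists of fragments over 1100 bp ended at 114812400 with TCPOBOP and 114811200 with vehicle.

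How the islands were broken up varied among livers, though some livers were nearly alike. In TCPOBOP replicate 1 a 71.6 kb island reached into the window from before its start, followed by islands of 9.2 and 6.8 kb. TCPOBOP replicate 2 had 1 island of 32.4 kb in the window, and TCPOBOP replicate 3 had 1 of 44.8 kb that began 14.4 kb before it. In vehicle replicate 1 an island of 81.6 kb reached in and 1 of 5.2 kb followed. Vehicle replicate 2 had islands of 19.6 and 7.6 kb, and vehicle replicate 3 had 1 of 28.4 kb. A break just after 114800000 recurred in TCPOBOP replicate 1 and in vehicle replicates 1 and 2, and was absent in the other 3 livers. In the fragments over 1100 bp, the TCPOBOP list had islands of 12.8 and 16.4 kb in the window, with the break from 114793201 to 114796000. The vehicle list had an island of 83.6 kb that reached in and 1 of 6.8 kb after it, with the break just after 114800000.

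**Figure D3:**
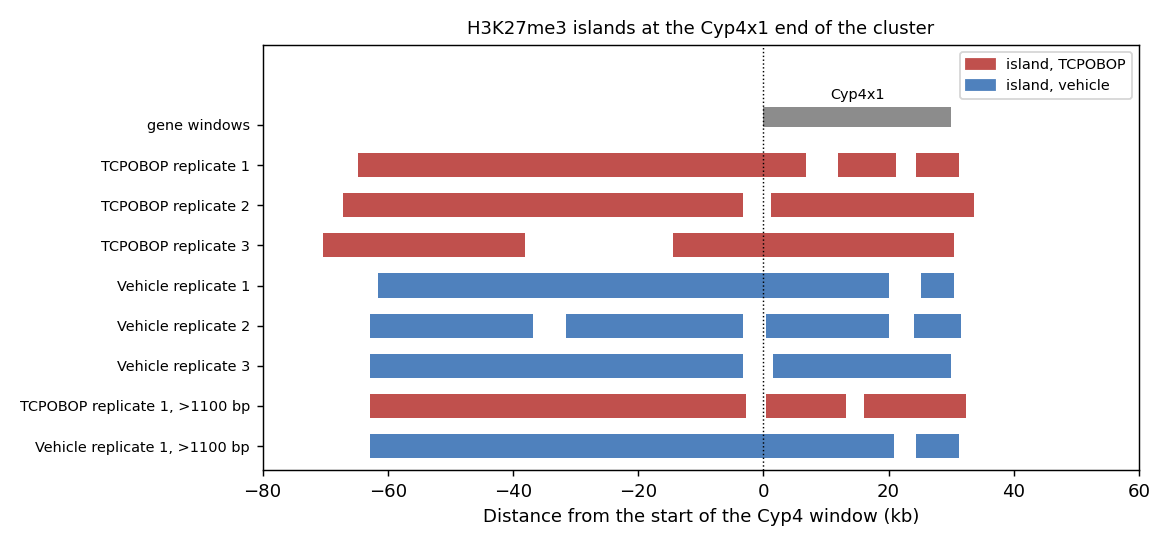
Islands of each library from 80 kb before to 60 kb after the start of the Cyp4 window, with the Cyp4x1 window as a grey bar; the x axis is the distance from the window's start in kb. The islands of the 8 libraries end between 30 and 33.6 kb into the window, while the breaks between islands vary among libraries, and some breaks are shared.

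By score, the islands over Cyp4x1 ranked lower than the island before them. The deposited score, a value from the authors, was used to rank islands within a list. In TCPOBOP replicate 2 the island before the window ranked 238 of 10197 and that over Cyp4x1 2093. In vehicle replicate 3 these ranks were 83 and 1860 of 12430. In TCPOBOP replicate 3 the island that reached over Cyp4x1 ranked 651 of 6295, and the 1 before it 342. Where a single island ran over both, it ranked 146 of 13759 in TCPOBOP replicate 1 and 233 of 10057 in vehicle replicate 1, but it lay mostly outside the window. Wider islands gather more score, so these ranks partly reflect width.

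In 5 of the 8 lists the last island followed a break inside the Cyp4x1 window. It was 5.2 to 7.6 kb wide in 4 of them, where by score per kb it ranked 824 of 13759 in TCPOBOP replicate 1, and 547 of 10057 and 1350 of 14748 in vehicle replicates 1 and 2. In the vehicle list of fragments over 1100 bp it ranked 377 of 17577. In these 4 lists the nearest island that began before the window ranked lower, at 1311, 692, 2237 and 581 in that order. In vehicle replicate 2 the next island out ranked 80. In the TCPOBOP list of fragments over 1100 bp the last island was wider, at 16.4 kb, and ranked lower, at 3261 of 22077. The nearest island before the window ranked 296 there. Earlier islands wholly inside the window ranked 8132 of 13759 in TCPOBOP replicate 1 and 3322 of 14748 in vehicle replicate 2. In the TCPOBOP list of fragments over 1100 bp such an island ranked 463 of 22077. TCPOBOP replicates 2 and 3 and vehicle replicate 3 had no such break. There the island over Cyp4x1 ranked 3593 of 10197, 2534 of 6295 and 7249 of 12430 by score per kb. The island before it ranked higher in each, at 740, 282 and 756. By score as such the last island of vehicle replicate 1 ranked 10032 of 10057, at 84.8 against a lowest score of 84.6 in that list, so its presence there was marginal.

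Across the whole window, islands covered 4.07, 5.79 and 5.43% in TCPOBOP replicates 1, 2 and 3, and 4.50, 4.86 and 5.07% in vehicle replicates 1, 2 and 3. The values of the treatments overlapped. The means were 5.10 ± 0.904% with TCPOBOP and 4.81 ± 0.289% with vehicle (SD, n = 3 each). They differed by 0.286 percentage points (two-sided exact permutation p = 0.7). The fragments over 1100 bp covered 5.21% with TCPOBOP and 4.93% with vehicle. It was 0.798 points without TCPOBOP replicate 1 and 0.714 with the libraries of replicate 1 merged, without overlap of the treatments and at the smallest p possible in both (exact permutation p = 0.1). It was -0.262 under the score minimum (exact permutation p = 1) and -0.0595 without TCPOBOP replicate 2 (exact permutation p = 0.9).

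At the level of bins, limma was fitted to the covered fraction of 47612 autosomal bins with islands in at least 2 of the 6 livers. At an adjusted p of 0.05 it called 0 bins (0%) higher with TCPOBOP and 0 bins (0%) lower. A limma unadjusted p under 0.05 was found for 308 higher and 990 lower, together less than a 0.05 share of the 47612 bins. With each library centred this balance turned round, to 1204 higher and 245 lower. Of the 56 bins of the cluster 4 entered the fit, and 0 of them were called or had an unadjusted p under 0.05. The smallest p belonged to the second bin, 114790001 to 114800000, which was 80, 100 and 100% covered in the TCPOBOP livers and 100% in each vehicle liver (limma difference -6.67 points, SE 5.64, adjusted p = 0.895). The third bin, from 114800001, was 68.0, 100 and 100% covered in the TCPOBOP livers and 48.0, 60 and 100% in the vehicle livers (limma difference 20 points, SE 17.0, adjusted p = 0.895). The first bin differed by -8.00 points and the fourth by 10.7 points, with limma adjusted p of 0.956 and 0.938. The treatments overlapped in all 4 bins. Over all bins fitted they did not overlap in 4.67%, with TCPOBOP higher in 1.16% and lower in 3.51%. The 0 calls do not show that the mark was kept.

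From the end of the Cyp4x1 islands, no island was listed for 584.4 kb, from 114813601 to 115398000, in any of the 8 lists. Within single lists the free stretch measured 588.0, 734.4 and 742.0 kb in TCPOBOP replicates 1, 2 and 3, and 742.4, 739.6 and 588.8 kb in vehicle replicates 1, 2 and 3. It was 585.6 kb with TCPOBOP and 587.6 kb with vehicle in the fragments over 1100 bp, although those lists covered more of the genome. With the 8 lists merged, 2.15% of the 19385 gaps between neighbouring autosomal islands were at least as long. Island-free stretches of this kind were still common in the genome, as 16.6% of 4739 autosomal windows of 520 kb held no island in any of the 8 lists. Reads that fit several places can be lost between close relatives such as Cyp4a12a and Cyp4a12b. The sources used here do not say how such reads were treated, and their part in the free stretch was not tested. Rows of a list may also be missing, so no absence of the mark is read from the stretch.

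The stretch ended in 4 of the 8 lists at a small island 58 kb beyond the window, towards Efcab14. It was listed in TCPOBOP replicate 1, in vehicle replicate 3 and in both lists of fragments over 1100 bp, with widths of 9.6 to 12.4 kb and 9.2 kb in common, from 115399201 to 115408400. The ChIP sample of vehicle replicate 1 showed it in the longer fragments alone. The 200 kb after the window were covered to 6.20, 0 and 0% in the TCPOBOP livers, and to 0, 0 and 4.80% in the vehicle livers.

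The 200 kb before the window, on the side of Pdzk1ip1 and Tal1, were far more covered than the cluster. The mm9 places of the genes on this side were not fixed, so this cover is not assigned to any of them. The 200 kb lay under islands to 58.2, 53.2 and 59.4% in the TCPOBOP livers and to 56.6, 49.4 and 50.4% in the vehicle livers, which overlapped. The means were 56.9 ± 3.29% with TCPOBOP and 52.1 ± 3.90% with vehicle (SD, n = 3 each; two-sided exact permutation p = 0.2). Stretches of 20.8 kb (114580001 to 114600800), 12.8 kb (114608401 to 114621200), 23.6 kb (114718401 to 114742000) and 11.2 kb (114765601 to 114776800) lay under islands in all 8 lists. In 4 of the 8 lists the island over the 11.2 kb stretch ran on without a break into the Cyp4x1 window, and in the other 4 a break of 3.2 to 4.8 kb lay between.

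Beside 4398 windows of 560 kb that tile the autosomes, the cluster lay near the middle in the 600 to 1100 bp lists. Of these windows, 48.9, 52.0 and 61.0% had less cover in TCPOBOP replicates 1, 2 and 3, and 49.0, 47.5 and 55.7% in vehicle replicates 1, 2 and 3. In the fragments over 1100 bp, 26.1% with TCPOBOP and 28.7% with vehicle had less. The median window there was covered to 21.6% with TCPOBOP and 19.6% with vehicle, while the cluster stayed near its value in the other lists.

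**Figure D4:**
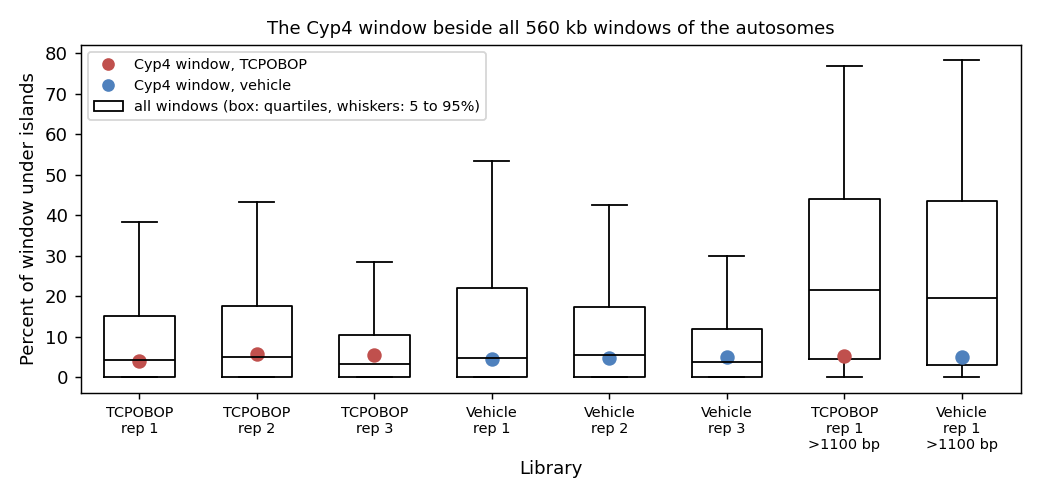
Percent under islands of the Cyp4 window (coloured points) beside all 560 kb windows of the autosomes in the same library; boxes span the quartiles with the median as a line, and whiskers the 5th to 95th percentile. The Cyp4 window lies between 4.07 and 5.79% in the 6 livers and at 5.21 and 4.93% in the fragments over 1100 bp, where the median window is at 21.6 and 19.6%.

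The windows with cover most like the cluster, by Euclidean distance over the 6 livers, lay on chromosome 8 (35840001 to 36400000, distance 1.84 percentage points) and chromosome 3 (36400001 to 36960000, distance 1.91, and 56560001 to 57120000, distance 2.20). In the fragments over 1100 bp they were covered to 10.9, 34.6 and 36.6% with TCPOBOP and to 22.1, 27.7 and 41.6% with vehicle, each more than the cluster. The Cyp2c cluster of chromosome 19, another family of hepatic P450 genes, was sparsely covered in an approximate window of 1190 kb. Its cover was 2.42, 2.29 and 0% in the TCPOBOP livers and 1.14, 3.76 and 4.94% in the vehicle livers, and 0.605% with TCPOBOP and 0.370% with vehicle in the longer fragments. Whether the Cyp4 and Cyp2c clusters differ was not tested.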

How the data were processed

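The deposited files are island lists with a score per island, 1 list per library, so replicates were not pooled by the authors. Bowtie2 2.3.2, SICER 1.1 and build mm9 are named, without roles, in the submitters' processing notes. Island ends fell on a 400 bp grid, with gaps of at least 2800 bp. Whether an input library was used is not stated in the sources used here. The score was used only within a list, apart from a score minimum tried as an alternative.

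Cover is the percent of a window under islands. Autosomes were tiled up to the last island of any list. Treatments were compared over 6 livers of 600 to 1100 bp fragments, by exact permutation (two-sided, difference of means, 20 labellings). They were also compared with limma 3.58.1 (trend, Benjamini-Hochberg at 0.05) in R 4.3.3. On simulated data with the spread of these lists, pooled over all fitted bins, limma did not recover planted changes. With a much smaller spread it did. The spread of the cluster's own bins was not simulated apart. The 0 calls of limma are no evidence that cover stayed the same. Covers, ranks and plots were computed with numpy 2.4.6, pandas 2.3.3 and matplotlib 3.10.9 in Python 3.11.15. Promoters came from RefSeq, GRCm38.p6.

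The genes, windows and rules were chosen with earlier results of these data known. Under the rule the text names all 6 genes, every island of the window, its stretches in all 6 or none of 8 lists, the bins with the smallest p and the 3 windows most alike. Window positions are approximate, from general knowledge. Alternatives were a score minimum of 84.6, equal covered length of 174 Mb, merged libraries of a ChIP sample, shifted edges, other bins, filters and scales, a replicate block, and leaving out each liver.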

Additional observations from a re-analysis of the deposited data

How the results depend on the processing

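The absence of islands over Cyp4a12a, Cyp4a12b, Cyp4a14, Cyp4a10 and Cyp4b1 cannot change under alternatives that only remove islands. Nor can it change with the lists of fragments over 1100 bp merged in, as these hold no island there either. The alternatives thus do not test it. The difference in cover of the window, 0.286 points, kept its sign in 9 of 13 alternatives, including a replicate block, which cannot change it. It was -0.262 with the score minimum and -0.525 with the window extended by 50 kb on each side, which adds the covered flank, and 0 with it narrowed by 50 kb, which removes Cyp4x1. With 1 liver left out it ranged from -0.0595 to 0.798, negative without TCPOBOP replicate 2. The Cyp4x1 difference, 1.78 points, was -3.11 at equal covered length and -8.44 under the score minimum. TCPOBOP replicate 1 was at 41.3% in both settings. Leaving out 1 liver gave Cyp4x1 differences from -3.56 to 10.4, negative without TCPOBOP replicate 2, TCPOBOP replicate 3 or vehicle replicate 1. The gene windows whose treatments did not overlap numbered 1, Cyp4x1, when the libraries from one ChIP sample were merged (9.33 points, exact permutation p = 0.1), and 0 to 1 with 1 liver left out, 1 without TCPOBOP replicate 1. The merge adds islands to replicate 1 alone. The share of all bins without overlap was not computed for the merge or with a liver left out. Bins present in all 6 livers numbered 2, and 1 when 80% had to be covered. limma called 0 bins of the window in 15 of 15 alternatives, with a lowest adjusted p of 0.694 to 1. With merged libraries 1 bin of the window had a limma unadjusted p under 0.05 (0.0497), against 0 otherwise. Of the 81533 bins fitted in that setting, 147 higher and 163 lower had such a p. Apart from the settings whose construction is given, the cause was not tested.

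With a replicate block the window difference is by construction the same, 0.286 (exact paired permutation p = 0.75, smallest possible 0.25), and limma called 0 bins. Correlations of the deviations of livers with equal numbers were 0.029, 0.0225 and 0.0677, below the 0.1 asked for to treat them as pairs. Depth is unknown, and 3 livers per treatment limit what could be detected.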
